A study of Mus musculus with 4 samples.

Results

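The 10 genes described here are immediate early genes, chosen by symbol from the whole-series table: Fos, Fosb, Fosl2, Jun, Junb, Jund, Egr1, Atf3, Ier2 and Ier3. Each symbol had 1 row, so 10 of 39170 rows of the table are members. Their RNA was measured in sorted islet cells of male mice (strain MIP-GFP C57BL/6, age 6 to 8 weeks), which carry a green fluorescent protein driven by the mouse insulin promoter. All mice carried this transgene. Insulin-positive cells were sorted into a Glut2-high gate (Glut2H) and a Glut2-low gate (Glut2L), from 3 vehicle-injected mice (control) and from 3 mice injected with 200 mg/kg of streptozocin (STZ), a beta cell toxin, in which diabetes was established 4 days later. The 4 groups, in the order used throughout, are Glut2H control, then Glut2L control, Glut2H STZ and last Glut2L STZ, with 1 library per group. With no replicate, no spread within a group can be had, no test was run, and each value describes these 4 libraries only. The labels do not state whether a library pools the mice of its group.

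Immediate early genes are transcribed soon after a cell receives a stimulus, from promoters whose factors are already in place, without the need for new protein. Most of those measured here encode transcription factors. Fos and Jun proteins pair through leucine zippers to form AP-1, Egr1 is a zinc finger factor of GC-rich sites, and Atf3 is a stress-induced leucine zipper factor. Their transcripts are short-lived. In islets they respond to glucose and to cyclic AMP, and in many tissues to enzymatic dissociation and sorting. No unsorted sample was analysed here and the labels give no dissociation time, so levels present in the animal and levels gained during the sort cannot be told apart.

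The bases upstream of the start site are shown for 5 members, because a cyclic AMP or AP-1 element is a textbook entry point, among others, of immediate early induction. Of the 10 members, 8 matched a RefSeq promoter window by symbol (GRCm38.p6, from 250 bases before the start to 50 after it); Egr1 and Ier2 did not. The first 4 sequences hold TGACG or TGACATCA. The last is that of Ier3, the 1 member past 2-fold downward in the library labelled Glut2L in both pairs, and holds neither. Each line gives the 150 bases before the RefSeq start, 5′ to 3′ on the gene's strand, with matches to these letters in capitals.
Fos, chr12:85473740-85473889, plus strand: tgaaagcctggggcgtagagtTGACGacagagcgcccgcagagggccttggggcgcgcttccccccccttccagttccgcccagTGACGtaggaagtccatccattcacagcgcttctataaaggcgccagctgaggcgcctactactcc
Fosb, chr7:19310046-19310195, minus strand: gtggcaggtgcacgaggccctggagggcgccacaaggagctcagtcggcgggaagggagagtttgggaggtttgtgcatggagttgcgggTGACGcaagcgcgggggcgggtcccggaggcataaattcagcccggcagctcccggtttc
Jun, chr4:95052223-95052372, minus strand: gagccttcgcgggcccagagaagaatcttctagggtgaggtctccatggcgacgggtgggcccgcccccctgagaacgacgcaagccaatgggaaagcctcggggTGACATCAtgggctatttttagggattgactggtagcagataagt
Junb, chr8:84978749-84978898, minus strand: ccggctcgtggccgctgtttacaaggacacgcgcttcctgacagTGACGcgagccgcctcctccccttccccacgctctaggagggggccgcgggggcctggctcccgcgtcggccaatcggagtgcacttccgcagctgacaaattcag
Ier3, chr17:35821563-35821712, plus strand: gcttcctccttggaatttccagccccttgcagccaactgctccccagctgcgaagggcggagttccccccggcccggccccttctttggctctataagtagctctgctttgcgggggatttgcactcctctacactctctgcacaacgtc
The capitals mark TGACG, the core of the cyclic AMP response element (also part of the full element TGACGTCA), or TGACATCA, an AP-1 element of the Jun promoter, searched on both strands. In Fos the TGACG matches began 129 and 66 bases before the start, in Fosb 60 and in Junb 106, and TGACATCA began 45 bases before the start of Jun. TGACG was found in the windows of 4 of 8 members (Fos, Fosb, Junb and, on the opposite strand, Atf3) and in 20.9% of 32544 promoter windows of the same length. TGACATCA was found in 1 of 8 and in 3.37% of all windows. The windows of Jund, the member with the highest control gate difference, and of Fosl2 hold neither, like that of Ier3. The Jund window (chr8:70697489-70697788) ends well before 70698949, where the Jund coordinates printed below begin. The Atf3 window (chr1:191183284-191183583, minus strand) lies inside the Atf3 coordinates printed below, far from 191218039, where they begin on that strand. The Fosl2 window (chr5:32136222-32136521) lies inside those of Fosl2, after their beginning at 32135801. The bases next to these 3 printed starts were not searched. The full TGACGTCA (1.8% of windows), the consensus AP-1 element TGACTCA (5.19%) and the CArG box of the serum response element (1.64%) were found in 0 of 8. Bases more than 250 before the start, and those of Egr1 and Ier2, were not searched. Elements there would be missed, so the 0 holds for these windows only. Of the general promoter motifs searched, GGGCGG was in 6 of 8 (35.9% of windows), Ier3 included, CCAAT in 4 (37.4%), TATAAA in 2 (13.6%) and the Egr1 motif GCGNGGGCG in 2 (5.6%). A match is a description of these letters, not of a bound site.

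The gates are named for the Glut2 protein, and their labels went against the transcript that encodes it. Slc2a2, which encodes Glut2, stood at 8.74, 41.0, 10.8 and 33.7 FPKM, higher in both libraries labelled Glut2L by 2.11 (control) and 1.55 (STZ) in log2, so every direction between gates given here is one between libraries so labelled. Whether the labels match the sorted gates, or the transcript follows the protein, was not tested. Ins2, an insulin gene, was the most abundant beta cell marker in each library, from 52596 to 294540.0 FPKM. It was higher in the libraries labelled Glut2L by 2.36 (control) and 1.74 (STZ) in log2. Its rank among beta cell markers cannot show how pure the insulin-positive sort was. Levels are in FPKM, a fragment count corrected for transcript length and for library size, which allows levels of different genes to be compared per length, and are always given in that order of the groups. The number of reads is unknown. Differences are in log2(FPKM + 1), which understates those of low genes, and "past 2-fold" means a difference of 1 or more on this scale. Each FPKM came with an interval from the authors' program whose level is not stated. Among the 10 members the half-width of that interval was between 55.2% and 106% of the value. In none of the 4 comparisons did the intervals of any member separate. The share of all rows whose intervals separate was not computed, so this is no result about the members.

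All 10 members were detected in all 4 libraries, from 4.04 FPKM for Fosb in the Glut2H STZ library to 158 FPKM for Fos in the Glut2L control library. Their FPKM summed to 604, 661, 459 and 588. Fos had the highest FPKM of the members in both libraries labelled Glut2L, Ier3 in the Glut2H control library and Junb in the Glut2H STZ library. By fold between the highest and lowest library, Fosb (5.62-fold), Ier3 (3.81-fold), Jund (2.67-fold), Jun (2.60-fold) and Fos (2.35-fold) varied most. Ier2 (1.74-fold), Atf3 (1.52-fold), Fosl2 (1.43-fold), Egr1 (1.32-fold) and Junb (1.25-fold) stayed within 2-fold over the 4 libraries.

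**Figure D1:**
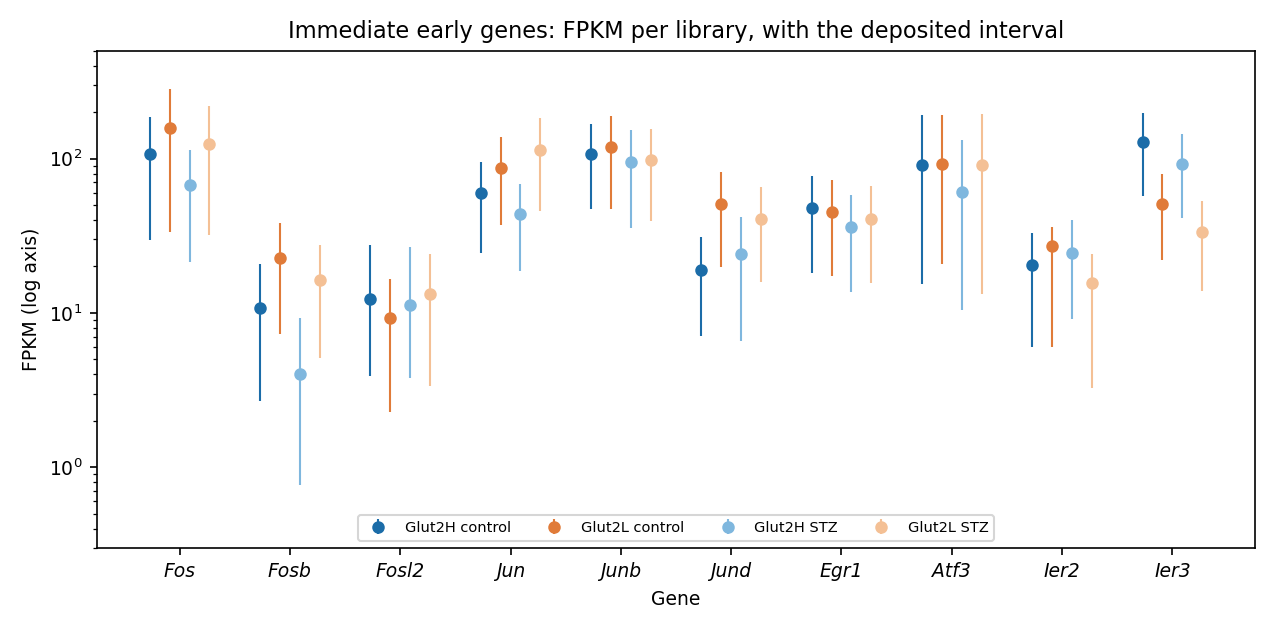
FPKM (log axis) of the 10 immediate early genes (x axis) in the 4 libraries, with 1 point per library and gene; bars are the deposited intervals, whose level is not stated. Fosb runs from 4.04 to 22.7 FPKM and Ier3 from 33.5 to 127 FPKM, while the 4 points of Junb lie between 94.97 and 119 FPKM; within each of the 4 comparisons the bars of each gene overlap.

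Fos family proteins join AP-1 only with a partner such as Jun. Among the 3 members of this family, Fos itself made up most of the RNA. Fos (ENSMUSG00000021250, GRCm38 chromosome 12, 85473890 to 85477273) stood at 108, 158, 67.3 and 125 FPKM. Of each pair the library labelled Glut2L had more Fos, by 0.55 in control mice and 0.88 after STZ, neither of which reaches 2-fold. The libraries of STZ mice were the lower of each gate, by 0.67 in Glut2H and 0.34 in Glut2L. Fosb (ENSMUSG00000003545, chromosome 7, 19302696 to 19310051), a close relative of Fos, stood at 10.8, 22.7, 4.04 and 16.4 FPKM. Its order over the libraries was that of Fos, with larger steps: the library labelled Glut2L was higher by 1.01 in control mice and 1.79 after STZ. The control value lies just past 2-fold, and was 0.81 with a pseudocount of 5 FPKM and 0.86 with the median of all rows set to 0.

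Fosl2, which encodes a Fos-related antigen (ENSMUSG00000029135, chromosome 5, 32135801 to 32157842), had the flattest course of the family, at 12.3, 9.22, 11.3 and 13.2 FPKM. Its highest value was in the Glut2L STZ library and its lowest in the Glut2L control library, 0.48 apart. Fos accounted for 82.3%, 83.2%, 81.4% and 80.8% of the summed FPKM of the 3 genes, and Fosb accounted for 8.25%, 11.9%, 4.88% and 10.6%.

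In the Jun family, Junb was level across the libraries, and Jun and Jund were higher in the libraries labelled Glut2L. Jun, which encodes the AP-1 subunit that can also pair with itself (ENSMUSG00000052684, chromosome 4, 95049034 to 95052222), stood at 59.7, 87.4, 43.9 and 114 FPKM. The library labelled Glut2L was higher by 0.54 (control) and 1.36 (STZ). The latter stayed past 2-fold under the 5 scalings and 2 pseudocounts tried (1.13 to 2.48). The alternatives that refilter or reread the values could not move it. After STZ, Jun was lower by 0.43 in the Glut2H library and higher by 0.38 in the Glut2L library. Its opposite strand carries the antisense gene BC042782, at 2.76, 18.6, 9.99 and 5.48 FPKM.

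Junb, whose product is a weaker activator than Jun (ENSMUSG00000052837, chromosome 8, 84974484 to 84978718), stood at 108, 119, 94.97 and 97.4 FPKM. The gates differed by 0.14 in control mice and 0.04 after STZ, the first of which turned to -0.01 and the second to -0.20 with the median of all rows set to 0. Jund, the family member that most cells express without a stimulus (ENSMUSG00000071076, chromosome 8, 70698949 to 70700616), stood at 19.0, 50.8, 24.2 and 40.6 FPKM. The library labelled Glut2L had more of it, by 1.37 in control mice, the highest gate difference of the 10 members there, and by 0.72 after STZ. Jund made up 10.2%, 19.8%, 14.9% and 16.1% of the family's summed FPKM.

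The values of Jund are uncertain in one respect. An antisense gene, Gm11175 (ENSMUSG00000080058, chromosome 8, 70699162 to 70700080, minus strand), lies wholly inside Jund. It was listed at 74.5, 238, 98.3 and 202 FPKM, which is 3.92, 4.68, 4.06 and 4.97 times Jund itself, with the same order of libraries. The kit marks strand, but the sources used here do not give the strand setting of the counting, so reads of Jund and Gm11175 cannot be told apart.

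Summed over 3 genes each, the Fos family stood at 131, 190, 82.7 and 154 FPKM and the Jun family at 186, 257, 163 and 252. The Fos sum was 0.701, 0.740, 0.507 and 0.612 of the Jun sum. Jun family RNA was thus more abundant than that of these 3 Fos genes in each library. The ratio was lower in the STZ library of each gate. Fosl1, a Fos relative that is not a member, is left out of the sum. It stood at 46.9, 11.9, 35.04 and 4.04 FPKM, higher in the libraries labelled Glut2H. The Fos shares, sum and ratio, and their gate differences, therefore hold for the 3 members only.

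Egr1 and Atf3 differed little between the libraries. Egr1 (ENSMUSG00000038418), a target of growth factor and glucose signals, stood at 47.6, 45.2, 35.9 and 40.8 FPKM. The gates differed by -0.07 in control mice (0.74 under an equal sum over all rows) and 0.18 after STZ (-0.057 with the median of all rows set to 0). Both STZ libraries were below their controls, by 0.40 in Glut2H and 0.14 in Glut2L. Atf3 (ENSMUSG00000026628, chromosome 1, 191170296 to 191218039) stood at 91.0, 92.0, 60.6 and 91.3 FPKM. The Glut2H STZ library is the low one, 0.58 below its control and 0.58 below the Glut2L STZ library. In control mice the gates differed by 0.01, which turned to -0.21 with the median of housekeeping genes set to 0. The other 3 values are nearly equal, and all 4 intervals overlap.

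The IER genes, named for immediate early response, went different ways. Ier2, which encodes a nuclear protein (ENSMUSG00000053560, chromosome 8, 84661331 to 84662852), stood at 20.3, 27.1, 24.6 and 15.5 FPKM. The library labelled Glut2L was higher by 0.40 in control mice and lower by 0.63 after STZ, the latter turning to 0.45 under an equal sum over all rows. Ier3, whose product modulates cell death and NF-kappaB signalling (ENSMUSG00000003541, chromosome 17, 35821684 to 35822923), stood at 127, 50.5, 92.2 and 33.5 FPKM. Both libraries labelled Glut2H were above both labelled Glut2L, with gate differences of -1.32 in control mice and -1.44 after STZ, so Ier3 is the 1 member past 2-fold downward in the library labelled Glut2L in each pair. Within each gate the STZ library was lower, by 0.46 in Glut2H and 0.58 in Glut2L.

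The gate pairs set the libraries labelled Glut2L against those labelled Glut2H. The submitters' design text calls the Glut2-low population enriched for multipotent progenitors. In control mice, 2 of 10 members (Jund and Fosb) were past 2-fold upward in the library labelled Glut2L, where 19.7% of all 16234 rows measured were. Ier3 alone (1 of 10) was past 2-fold downward, where 18.5% of all rows were. The remaining 7 lay within 2-fold, as did all but 38.2% of the rows. The median of the members was 0.27, beside 0.15 for all rows. After STZ, 2 of 10 (Fosb and Jun) were past 2-fold upward and 1 (Ier3) lower, beside 22.9% and 17.8% of 15839 rows (40.7% in either direction). The median was 0.40, beside 0.23 for all rows. These shares lie near those of all rows and are no result about the members as a group. The 2 gate pairs share no library, whereas each comparison of treatments reuses libraries of both.

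**Figure D2:**
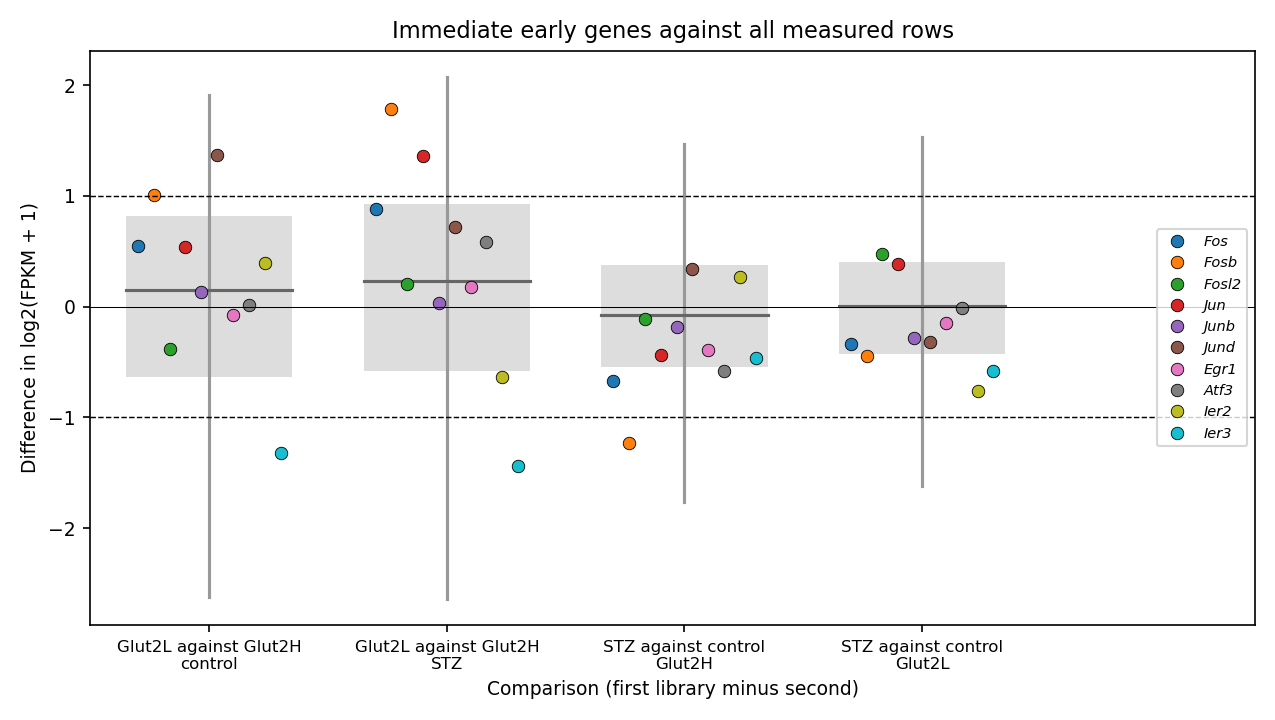
Differences in log2(FPKM + 1) of the 10 genes (coloured points) in the 4 comparisons; grey boxes span the quartiles of all measured rows, the bar in the box is their median, vertical lines span their central range from p5 to p95, and dashed lines mark 2-fold. Jund (1.37) and Fosb (1.01) in the control gate pair, Fosb (1.79) and Jun (1.36) in the STZ gate pair, Ier3 in both (-1.32 and -1.44) and Fosb in Glut2H after STZ (-1.23) lie outside 2-fold.

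Markers of other cell types moved between the same libraries. All 14 measured leukocyte markers in control mice and 13 of 14 after STZ were past 2-fold downward in the library labelled Glut2L (medians -4.50 and -4.16), and the 15 markers of that list summed to 3002, 108, 3296 and 142 FPKM. Cd3e, the T cell marker, was listed at 0 in both libraries labelled Glut2L, and was at 0.0725 and 0.361 FPKM in those labelled Glut2H. All 9 endothelial markers were past 2-fold downward there in each pair (medians -2.96 and -3.28; sums of 289, 35.2, 252 and 15.0 FPKM, with Tie1 listed at 0 in the Glut2L STZ library), as were all 10 stromal markers (medians -3.38 and -3.82; sums of 915, 61.7, 771 and 23.1). The 10 beta cell markers went the other way, with 10 and 8 past 2-fold upward (medians 1.82 and 1.34). Across these shifts the members' summed FPKM was 604 and 661 in the control pair and 459 and 588 in the STZ pair. The order within each pair turned when the predicted gene Gm20594 was left out and the libraries were set to the same total. The members' sums were then 527 and 416 in the control pair, and 425 and 393 in the STZ pair. Which gate had the higher sum thus depended on the scale. The part of these cell types in the levels of the members was not tested, and in such mixed samples fewer cells of a type and less RNA per cell cannot be told apart. Acinar markers were past 2-fold downward in the Glut2L STZ library alone, for 10 of 10 against each of the Glut2H STZ and Glut2L control libraries (sums of 3711, 2938, 4137 and 342 FPKM). Alpha, delta and PP, and duct cell markers were present in each library, at sums of 2315, 4211, 4370 and 9962 FPKM, of 5612, 9550.3, 5613 and 10509 FPKM, and of 233, 275, 241 and 259 FPKM.

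The scale of the libraries sets several of these calls. The predicted gene Gm20594 alone held 61.0%, 3.86%, 68.5% and 4.15% of the summed FPKM. With each library rescaled to the same total FPKM, the median difference of all rows moved up by 0.72 in the control gate pair and by 0.95 in the STZ gate pair, and 5 and 8 of 10 members were then past 2-fold upward in the library labelled Glut2L and 0 lower. Of all rows 44.3% and 58.4% were past 2-fold upward under that scaling, and 12.1% and 9.79% downward. Without Gm20594 and the other highest rows, short loci and mitochondrial genes in the sum, the counts were 1 higher and 1 lower in control mice, and 2 higher and 1 lower after STZ. Ier3 stayed the lowest of the members under each of the 4 scalings drawn, at -0.50 and -0.32 under the equal sum. The gate differences of Fos, Fosb, Jun, Jund and Ier3 kept their sign in both pairs under all 5 scalings tried. The alternatives that change the pseudocount, refilter or reread the values could not change the sign of a member's difference.

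**Figure D3:**
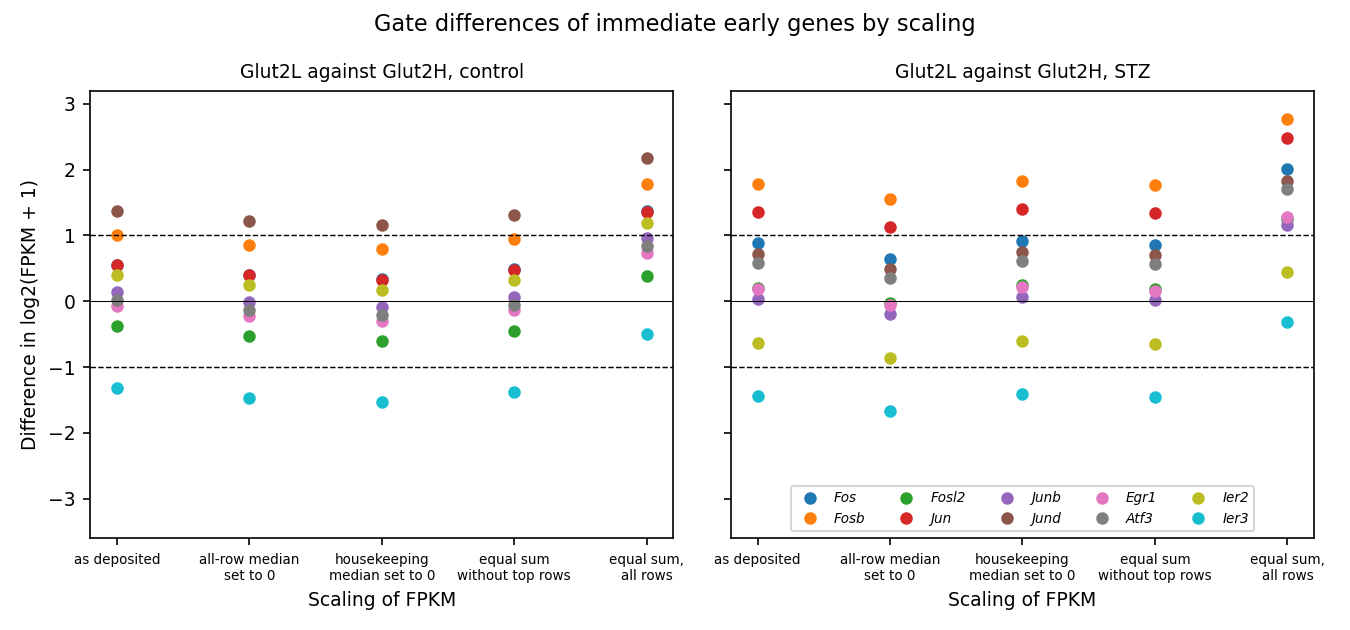
Gate differences in log2(FPKM + 1) of the 10 genes (y axis) with FPKM as deposited and under 4 scalings (x axis), in control mice (left) and after STZ (right); each point is 1 gene and dashed lines mark 2-fold. Under an equal sum over all rows 5 (control) and 8 (STZ) lie above the upper dashed line.

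STZ enters beta cells through Glut2, and the treatment pairs set diabetic against vehicle-injected mice, gate by gate. Most members were lower in the STZ libraries, by little. In the Glut2H libraries 8 of 10 had a difference below 0, beside 54.6% of all rows, and the median was -0.42, beside -0.07 for all rows. Fosb was the 1 member past 2-fold downward (-1.23), where 13.8% of 15558 rows were, and 0 were past 2-fold upward, where 9.62% of rows were (23.5% in either direction). Fosb was at -0.80 with a pseudocount of 5 FPKM. In the Glut2L libraries 8 of 10 were below 0, beside 49.7% of all rows, with a median of -0.30, beside 0.0042 for all rows. There 0 of 10 reached 2-fold in either direction, beside 21.2% of 15602 rows (10.2% higher and 11.1% lower). The lowest was Ier2 (-0.76) and the highest Fosl2 (0.48). Jund and Ier2 were above 0 in Glut2H (0.34 and 0.26), and Fosl2 and Jun in Glut2L (0.48 and 0.38). Beside these values, 10 of 10 acinar markers (median -2.97) and 3 of 7 endothelial markers (median -0.95) were past 2-fold downward after STZ in the Glut2L libraries, and 0 of 10 and 3 of 9 (median -0.67) in the Glut2H libraries. Their part in the levels of the members was not tested.

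Other immediate early genes lay on both sides of 2-fold between the gates. Of 40 measured in the control pair, 7 were past 2-fold upward and 12 lower in the library labelled Glut2L (median 0.24). Of all rows 19.7% and 18.5% were. Of 41 in the STZ pair, 8 were higher and 11 lower (median 0.26), beside 22.9% and 17.8% of all rows. For list counts after STZ within a gate, the shares of all rows are those given above for that gate. The highest in control mice were Cebpd, a leucine zipper factor of inflammation, at 28.9, 136, 25.4 and 81.4 FPKM, and Socs3, the feedback inhibitor of cytokine receptors, at 47.3, 208, 8.23 and 100.4. In both genes each library labelled Glut2L was above each labelled Glut2H. The lowest were Sgk1, a kinase of the glucocorticoid response, at 266, 17.6, 198 and 23.3, and Ctgf, a matricellular growth factor gene of stromal and endothelial cells, at 54.9, 3.15, 158 and 3.27. Cyr61, its relative, was at 61.7, 11.6, 72.5 and 6.34. The last 3 were high in both libraries with the high stromal and endothelial sums, whose part was not tested.

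Nr4a2, an orphan nuclear receptor gene, stood apart by library, at 6.08, 7.41, 4.92 and 33.9 FPKM, and was the highest of the list in the Glut2L libraries after STZ (2.05). In those libraries 3 of 41 were past 2-fold upward and 5 lower after STZ (median -0.10). In the Glut2H libraries 2 of 40 were higher and 2 lower (median -0.27), with Ctgf (1.51) and Socs3 (-2.39) at the ends.

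Other leucine zipper partners of AP-1 divided by gene. Of 12 measured, 3 were past 2-fold upward and 4 lower in the library labelled Glut2L in each pair, with medians of 0.50 and 0.76. Of all rows 19.7% and 18.5% were in the control pair, and 22.9% and 17.8% in the STZ pair. Fosl1, the remaining Fos relative, was at 46.9, 11.9, 35.04 and 4.04 FPKM, and Jdp2, a repressor that pairs with Jun, at 7.11, 1.04, 4.31 and 0.375. Both were lower in the libraries labelled Glut2L, unlike Fos and Fosb. Ddit3, the CHOP gene of the unfolded protein response, was at 85.0, 345, 91.3 and 180 FPKM, and Atf2, a factor phosphorylated by stress kinases, at 12.9, 33.9, 28.4 and 25.6. Mafg, a small Maf factor gene, was at 27.5, 37.8, 15.97 and 48.3. After STZ 1 of 12 was past 2-fold upward and 0 downward in Glut2H, and 0 and 1 of 10 in Glut2L.

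Kinases and factors upstream of the immediate early genes had medians near 0: -0.01 in the control gate pair, -0.14 in the STZ gate pair, 0.03 in Glut2H and 0.02 in Glut2L. Of 22, 2 were past 2-fold upward and 3 lower in the control gate pair, beside 19.7% and 18.5% of all rows. In the STZ gate pair 0 and 3 were, beside 22.9% and 17.8%. After STZ 2 were higher and 1 lower in Glut2H, and 1 and 0 in Glut2L. Mapk10, the JNK gene best known from neurons, was at 11.8, 68.1, 35.1 and 63.1 FPKM. Elk3, a partner of the serum response factor, was at 17.0, 2.59, 18.8 and 5.77, high in the same libraries as the endothelial markers.

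Negative regulators lay mostly below 0 between the gates. Of 17 in the control gate pair, 1 was past 2-fold upward and 6 lower (median -0.48), and after STZ 3 of 16 were higher and 7 lower (median -0.69), beside 18.5% and 17.8% of all rows past 2-fold downward. The leukocyte, endothelial and stromal markers were low in the same libraries (medians of -4.50, -2.96 and -3.38 in control mice), and their part was not tested. Tnfaip3, a brake on NF-kappaB, was at 31.0, 3.17, 14.2 and 2.71 FPKM and Dusp6, the phosphatase of ERK, at 24.98, 3.07, 22.2 and 4.23. Dusp10 (12.4, 27.4, 11.4 and 24.8) and Dusp4 (18.5, 36.4, 10.005 and 37.8), also MAP kinase phosphatase genes, went the other way. After STZ 0 of 17 were past 2-fold upward and 2 lower in Glut2H, and 0 of 16 in either direction in Glut2L.

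Textbook targets of AP-1 and Egr1 were lower in the libraries labelled Glut2L. Of 17 measured in the control gate pair, 15 were past 2-fold downward and 0 upward (median -3.16). Of 16 after STZ, 13 were lower and 1 higher (median -3.34). Of all rows 18.5% (control) and 17.8% (STZ) were past 2-fold downward. Mmp13, a collagenase gene, stood at 36.8, 0.358, 24.6 and 0.583 FPKM, and Ccl2, a monocyte chemokine gene, at 279, 9.60, 140 and 6.25. These are genes that leukocytes and stromal cells also express, whose markers had medians of -4.50 and -3.38 in control mice, and the part of those cells was not tested. After STZ 0 of 17 were past 2-fold upward and 3 downward in Glut2H, and 0 and 1 of 13 in Glut2L. Vegfa (71.7, 83.3, 87.8 and 97.9) and the cyclin gene Ccnd1 (5.14, 7.60, 3.85 and 9.26) were the highest of the list between the gates.

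Of the heat shock genes, some are also known to be induced by dissociation. The sums of this list were 2161, 4634, 1988 and 3027 FPKM, highest in the Glut2L control library. Hspa5, a gene of the unfolded protein response like Ddit3, held 519, 1987, 609 and 1385 FPKM of these sums. In the control gate pair 7 of 12 genes of the list were past 2-fold upward in Glut2L and 0 downward (median 1.14). Of all rows 19.7% and 18.5% were. In the STZ gate pair 3 were higher and 0 lower (median 0.43), beside 22.9% and 17.8% of all rows. Beta cell markers were higher in the same libraries (medians of 1.82 and 1.34 between the gates). Neither the part of those cells nor that of dissociation was tested. Hspa1a, the inducible Hsp70, stood at 10.4, 53.3, 3.92 and 14.2 FPKM and the small heat shock gene Hspb1 at 9.48, 51.8, 6.82 and 9.21. For both the Glut2L control library is the high one. After STZ 4 of 12 were past 2-fold downward in the Glut2L libraries (median -0.77), beside 11.1% of all rows. In the Glut2H libraries 1 of 12 was (median -0.31), beside 13.8% of all rows. Housekeeping genes had medians of 0.22 and -0.03 between the gates and -0.0043 and -0.14 after STZ in Glut2H and Glut2L, with 15 of 15 measured. Of them 1 was past 2-fold upward and 0 downward in the control gate pair, 1 and 1 in the STZ gate pair, 0 and 0 in Glut2H and 0 and 1 in Glut2L.

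**Figure D4:**
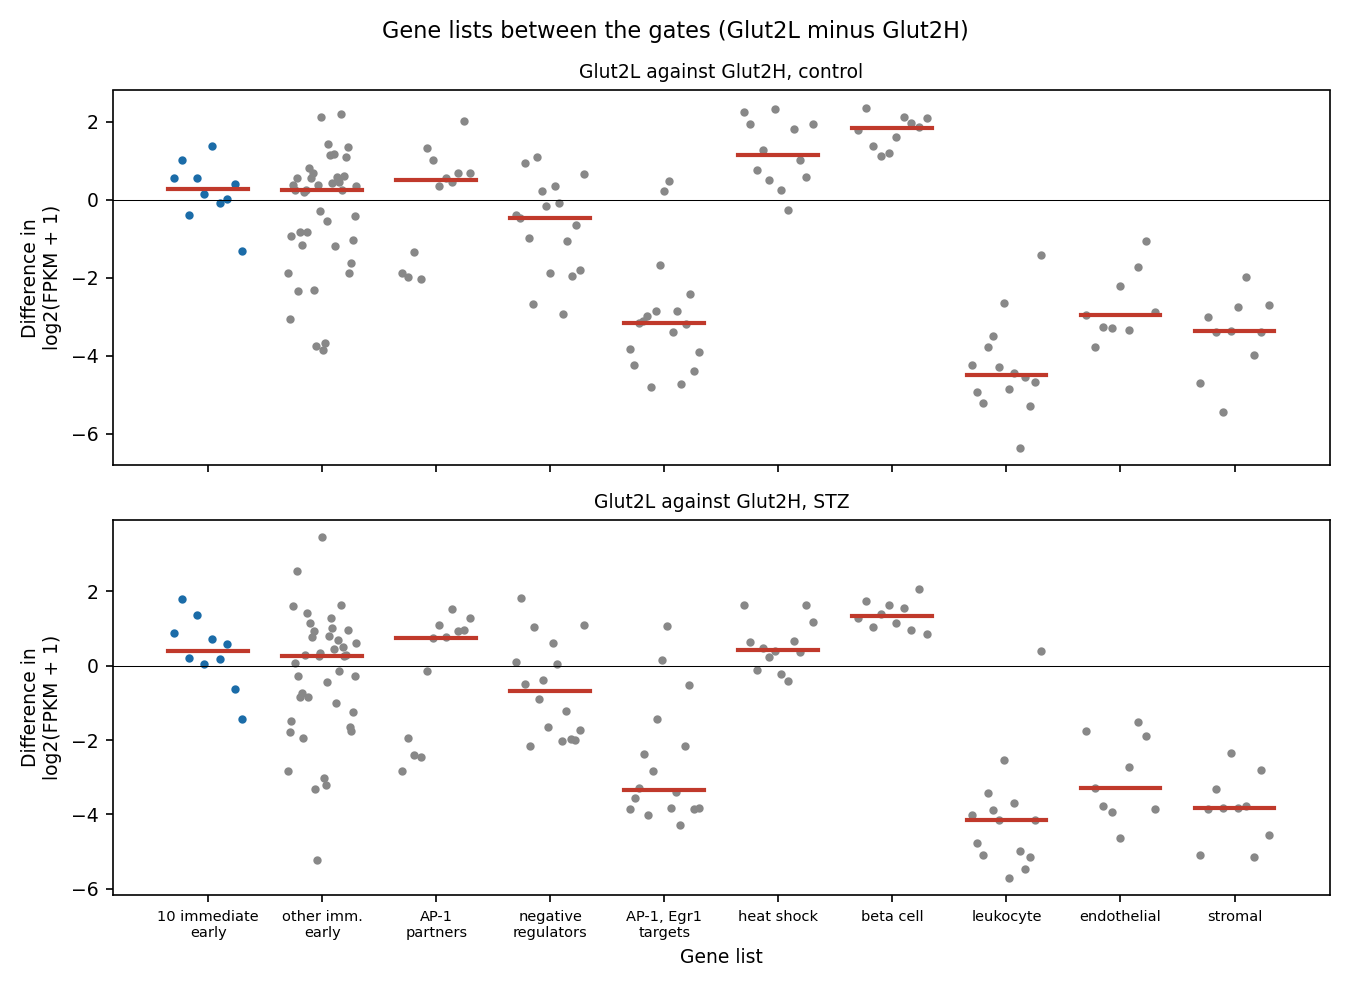
Differences in log2(FPKM + 1) between the gates (Glut2L minus Glut2H) in control mice (top) and after STZ (bottom); each point is 1 measured gene of the list named on the x axis and red bars are list medians. The medians of the 10 immediate early genes are 0.27 and 0.40, those of the AP-1 and Egr1 targets -3.16 and -3.34, and those of the leukocyte markers -4.50 and -4.16.

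The 10 members did not share 1 course over the libraries. Centred on each gene's own mean log2(FPKM + 1), their mean profile was 0.02, 0.25, -0.32 and 0.05. By Euclidean distance over the 4 libraries, Atf3 (0.21), Junb (0.25) and Egr1 (0.25) lay nearest to it and Ier3 (1.70) and Fosb (1.28) farthest. Among 6244 other protein-coding genes with at least 5 FPKM in every library, those nearest to the profile were Sgta (0.028), Hs6st1 (0.028), Ccdc107 (0.040), Atp5f1 (0.048) and Ube2s (0.048). Of these 6244 genes, 191 lay nearer to the members' mean than Atf3, the closest member, did.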

How the data were processed

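RNA of 4 sorted populations was sequenced from stranded total RNA libraries depleted of ribosomal RNA, per the labels' protocols. The authors deposited gene FPKM, each with its interval (2 bounds) and quantification status, per the file headers. TopHat2, SAMtools and Cuffdiff were used on GRCm38 (mm10), per the submitters' processing notes; the sources used here do not give versions, annotation release or strand setting. The whole-series table was read; of 156680 values in the single-sample tables, 0 differed from it. Depth is unknown. Genes were placed with GENCODE M21, which matched 37607 of 39170 rows by Ensembl ID.

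Log2(FPKM + 1) was compared between 2 libraries over rows with at least 1 FPKM in either where both statuses were OK, and counted at 2-fold. All 10 members passed. With 1 library per group no p-value is given. Genes named beyond the members come from the 2 highest and 2 lowest of each list between gates and the 1 highest and 1 lowest after STZ, with at least 5 FPKM. Which of these the text prints was chosen after their values were seen. Cd3e, Tie1, Gm20594 and the antisense genes were named after their values were seen. Some genes lie on more than 1 list, among them Fosl1, Maff, Mafk, Zfp36 and Btg2. Members and lists were chosen with earlier results of these data known. The counting of 2-fold differences was tested on simulated data and recovered the differences placed. Those were larger than 2-fold, in abundant rows and with little noise. The simulation is thus no check of calls near 2-fold or of low genes in these libraries. Python 3.11.15, pandas 2.3.3 and numpy 2.4.6 were used. Alternatives were 2 pseudocounts, 2 filters, 5 scalings, the single-sample tables, separated intervals and a 3-fold threshold.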

Additional observations from a re-analysis of the deposited data

Results flagged for a closer look

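Several members had a difference of opposite sign in the other arm of the same contrast; with 1 library per group none of these contrasts of differences was tested. Between the gates in their STZ effects (Glut2L minus Glut2H, in log2), Jun stood at 0.82 (-0.43 in Glut2H and 0.38 in Glut2L) and Fosl2 at 0.59 (-0.11 and 0.48). Jund stood at -0.65 (0.34 and -0.31) and Ier2 at -1.03 (0.26 and -0.76). Between STZ and control mice in their gate differences, Fosl2 stood at 0.59 (-0.38 in control and 0.21 after STZ), Egr1 at 0.25 (-0.07 and 0.18) and Ier2 at -1.03 (0.40 and -0.63). For each gene the contrast of gates and the contrast of treatments are the same number computed from the same 4 values. For Jund, the antisense gene Gm11175 had STZ differences of 0.40 in Glut2H and -0.23 in Glut2L. The Fosl2 gate differences changed sign under some scalings: the STZ value was -0.028 with the median of all rows set to 0, and its control value was 0.38 under an equal sum over all rows.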

How the results depend on the processing

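With the median of all rows set to 0, 1 member was past 2-fold upward in the control gate pair (library labelled Glut2L minus Glut2H) and the medians of the gate differences were 0.12 (control) and 0.16 (STZ). With the median of protein-coding genes set to 0, an alternative added after the data were seen, they were 1, 0.12 and 0.18. With the median of housekeeping genes set to 0, the control count was 1, its median 0.046, and the median after STZ in Glut2L -0.16. With an equal sum without the highest rows the control count was 1. With an equal sum over all rows, 5 (control) and 8 (STZ) members were higher between the gates and 0 and 0 lower, with medians of 1.07 and 1.49, beside 0.87 and 1.18 for all rows, and the Glut2H median after STZ was -0.63. With a pseudocount of 5 FPKM, 1 member was higher in the control gate pair and 0 lower after STZ in Glut2H. With a 3-fold threshold, 0 and 1 were higher and 0 and 0 lower between the gates, and 0 lower after STZ in Glut2H. With separated intervals each of these counts was 0. The shares of all rows past 3-fold or with separated intervals are not given here, so these counts are no result about the members. The cause of these shifts was not tested. A pseudocount of 0.1 FPKM left all 40 member differences on the same side of 2-fold with the same sign. Both filters and the single-sample tables leave the members' values unchanged, so they could not move any of these differences. The unknown depth and intervals whose half-width was 55.2% to 106% of the value limit what these libraries can resolve. No paired analysis was possible because each group has 1 library. A gate fit over both pairs, which would take control and STZ mice as replicates, was not run.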
